A study of Petromyzon marinus with 17 samples.

Results

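The regions described here are 2091 long stretches of the sea lamprey genome in which no non-methylated island (NMI) was called in any tissue examined. They were found by joining the NMIs of 12 BioCAP libraries wherever these overlapped or touched, which gave 183431 merged NMIs on 6264 scaffolds of the petMar3 assembly, and by keeping every gap of 40 kb or more between neighbouring merged NMIs of a scaffold. Of 177167 gaps between merged NMIs, 2091 (1.18%) were kept, and they are called long gaps below. The lengths of the gaps chose them, so their number, length and spacing are given as a description with no test. The shortest long gaps measured 40000, 40002 and 40003 bp, and the longest gaps that missed the limit measured 39987, 39991 and 39993 bp.

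In vertebrate genomes most CpG dinucleotides can be methylated, and NMIs are the stretches that are kept free of methylation, many of them CpG-rich and at gene promoters or other regulatory elements. BioCAP isolates such DNA with a CxxC zinc finger, taken from the human protein KDM2B, which binds CpG sites only when they are unmethylated, so a stretch with few CpG sites gives little signal whether it is methylated or not. Lampreys belong to the jawless vertebrates, and their somatic cells lose part of the germline genome early in development.

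BioCAP was carried out on adult brain, muscle, PBMCs (peripheral blood mononuclear cells) and sperm, and on embryos at day 1 and day 2, with 2 replicates of each of these 6 tissues and stages. No genetic change or treatment is named in the labels for any of them, and the labels do not say which animals the replicates came from. The study describes its replicates as biological, from fish of either sex for brain and muscle and from different male fish for PBMCs. The authors called peaks in each library, and each peak is 1 NMI. A gap is therefore a stretch in which no peak passed the threshold of the peak caller. Methylated DNA, DNA poor in CpG sites, assembly gaps and unmappable sequence cannot be told apart from these lists. In gaps of brain, muscle or PBMC libraries, DNA lost from somatic cells cannot be told apart from them either.

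Long gaps summed to 197 Mb, which is 19.6% of the 1006 Mb between the outermost merged NMIs of the scaffolds and 22.9% of the length of all gaps. The median long gap measured 57487 bp, with quartiles of 46406.5 and 86363 bp, against a median of 1665 bp for all gaps between merged NMIs. The number of gaps dropped steeply with length. 1345 gaps reached 50 kb, 411 reached 100 kb, 169 reached 200 kb and 111 reached 300 kb.

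The decline in number was broken at 500 kb. Between 450 and 500 kb there were 3 gaps, the longest of 473928 bp, whereas 53 gaps fell between 500 and 525 kb, the shortest of them 500072 and 500771 bp long. A further 13 gaps measured 525 to 550 kb, 7 measured 550 to 600 kb and 2 measured 600 to 700 kb. No gap lay between 700 and 1000 kb, and the 4 longest measured 1028281 bp or more. The 79 gaps of 500 kb or more lay on 39 scaffolds and made up 22.0% of the summed length of long gaps. The same step was present in each of the 12 libraries taken alone, with 3 to 9 gaps of 450 to 500 kb and 41 to 59 gaps of 500 to 550 kb per library. A library with NMIs on both sides of a long gap has a gap there at least as long by construction. The 12 libraries are therefore not separate observations of the step. What the sequence of these gaps holds was not tested, as no genome sequence of petMar3 was used here. Without the gaps of 500 kb or more, long gaps summed to 154 Mb, or 15.3% of the span. The shares by scaffold and the difference in gap length between tissue sets are also given without them.

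**Figure D1:**
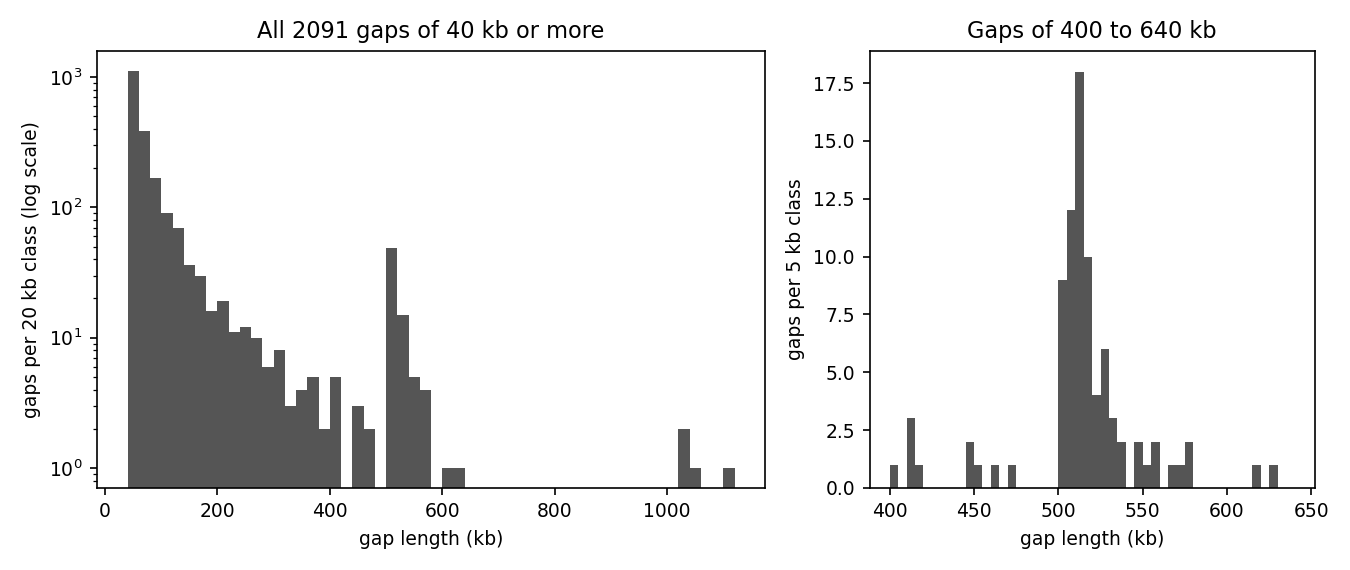
Number of long gaps by length in kb, in classes of 20 kb on a log axis for all 2091 gaps (left) and in classes of 5 kb on a linear axis for gaps of 400 to 640 kb (right). Counts fall with length to 3 gaps between 450 and 500 kb, then 53 gaps sit between 500 and 525 kb and 4 gaps lie above 1000 kb.

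The longest gap, PIZI01000019v1:13755347-14859825, measured 1104479 bp. The NMI before it was called in 3 libraries and the NMI after it in 7, and the NMI-free stretch of single libraries at this place measured 1123 to 1164 kb in brain, muscle and PBMCs and 1105 to 1176 kb in sperm, day 1 and day 2. The gap at PIZI01000022v1:13061312-14108546 (1047235 bp) was bounded by a 351 bp NMI called in both sperm libraries alone and by a 296 bp NMI called in both muscle libraries alone. It therefore lay within stretches of 1559 kb in both brain libraries and 1557 kb in both muscle libraries, and in the PBMC, sperm, day 1 and day 2 libraries no NMI was called beyond it on that scaffold. The gaps at PIZI01000008v1:8167604-9202020 (1034417 bp) and PIZI01000034v1:4166851-5195131 (1028281 bp) came next. The stretch on PIZI01000008v1 was shortest in brain replicate 2, at 1034 kb, and longest in day 2 replicate 1, at 1112 kb. The one on PIZI01000034v1 varied less, from 1028 kb in PBMC replicate 2 to 1048 kb in day 2 replicate 2.

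The other gaps among the 10 longest measured 566407 to 625316 bp. The one at PIZI01000022v1:11860149-12438013 (577865 bp) had an NMI of all 12 libraries on each side, of 629 and 801 bp, and its length was nearly the same in every library, from 577.9 to 578.2 kb. A pair of them lay side by side on PIZI01000013v1, at 10490916-11066726 (575811 bp) and 11067196-11633602 (566407 bp), with only a 469 bp NMI between them. This NMI was called in the 8 libraries of PBMCs, sperm, day 1 and day 2, with a fold enrichment of at most 4.19, and in no brain or muscle library. Both gaps were accordingly 1 stretch of 1248 kb in the brain libraries and of 1300 kb in the muscle libraries.

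Long gaps were present on 188 of the 447 scaffolds whose span, measured between their outermost merged NMIs, reached 40 kb. Each of the 44 scaffolds with a span of 10 Mb or more had at least 9 of them. Their share of the span ranged from 5.34% on PIZI01000042v1 to 58.8% on PIZI01000032v1, with a median of 18.5%. PIZI01000032v1 had 37 long gaps, of which 8 reached 500 kb, and without those 8 the share was 24.7%. With all gaps of 500 kb or more left out, the share over the 44 scaffolds ranged from 5.34% to 35.6%, with a median of 14.2%, and 24 of the 44 scaffolds had at least 1 gap of that size.

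**Figure D2:**
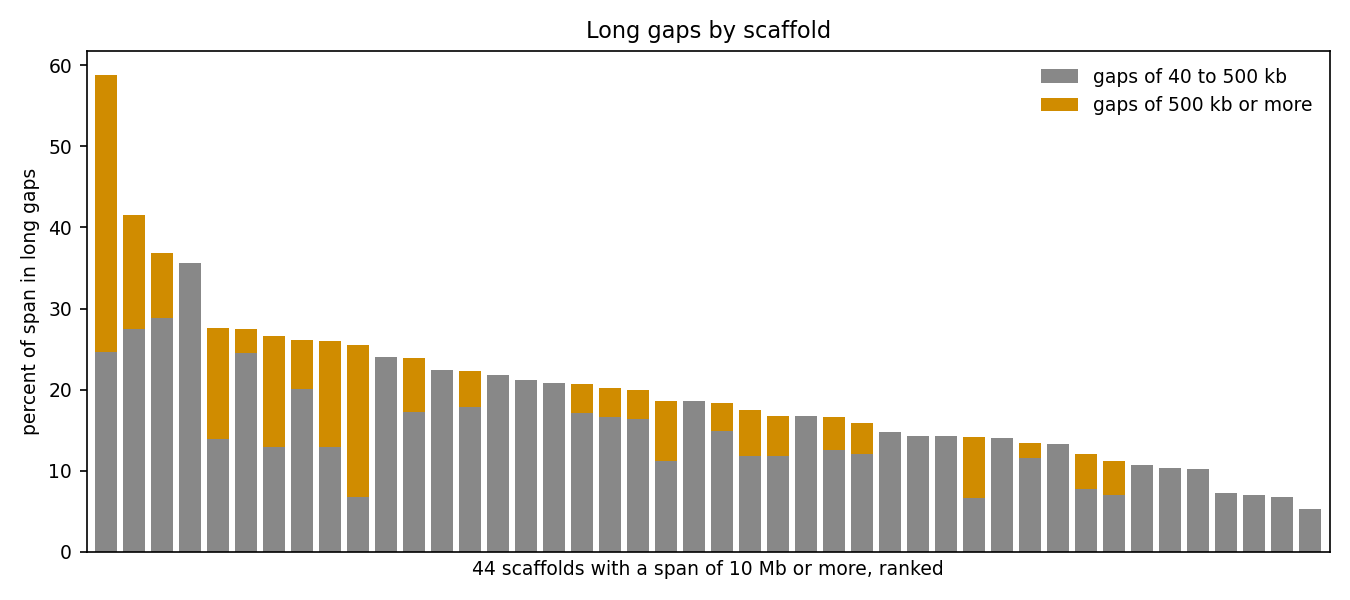
Percent of the span in long gaps for each of the 44 scaffolds with a span of 10 Mb or more, ranked from left to right, with gaps of 40 to 500 kb in grey and gaps of 500 kb or more in orange. Shares run from 58.8% to 5.34%, and 24 scaffolds have an orange part.

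The NMI density outside the long gaps varied as well. The 10 of these 44 scaffolds with the largest share of long gaps had 16.2 to 24.8 merged NMIs per 100 kb outside them (median 19.1), and the 10 with the smallest share had 19.9 to 25.2 (median 23.0), ranges that overlapped. Outside its long gaps PIZI01000032v1 had 18.7, against 7.68 over its whole span. In number, long gaps were most frequent on PIZI01000005v1, with 114 (4.61 per Mb). PIZI01000005v1, PIZI01000004v1, PIZI01000007v1 and PIZI01000006v1 held 335 long gaps, 16.0% of the total on 8.97% of the summed span. Among the 104 scaffolds with a span of 1 Mb or more, 98 had a long gap, and the largest share was 72.3% of the 4.42 Mb of PIZI01000066v1, with 27 gaps and 9.87 merged NMIs per 100 kb outside them. The longest span without any long gap was 1.495 Mb. PIZI01000001v1 had 40 long gaps (13.4% of its span), the longest of 503822 bp, and PIZI01000031v1 had 18 (11.2%), the longest of 506410 bp.

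On the scaffolds of 1 Mb or more, 23.5% of 1942 long gaps had their centre in the outer 10% of the span at either end, against 18.5% of all gaps. Over all scaffolds, 50 of the 2091 long gaps adjoined the outermost merged NMI of a scaffold, and the share over all gaps was not computed. Between the end of a long gap and the start of the next on a scaffold, the median distance was 97030 bp over 1903 pairs. No comparison value was computed for this distance.

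Long gaps also followed each other directly. Of 2063 long gaps with a further gap on the same scaffold, 226 (10.95%) were followed by a long gap, against 1.19% of all gaps, and 24.2% were followed by a gap of 20 kb or more, against 4.3% of all gaps. The first share was 11.1% when gaps of 500 kb or more were left out as the leading gap but still counted as a following gap. When long gaps with at most 100 kb between them were joined into runs, 371 runs of 2 or more held 1341 long gaps (64.1%), and 750 long gaps stood alone. There were 83 runs of 5 or more and 15 runs of 10 or more. No comparison value was computed for the runs.

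The run with the most long gaps, PIZI01000007v1:4671540-6989374, held 20 of them over 2.32 Mb, of which 90.3% was long gap and none was a gap of 500 kb or more. It contained 43 merged NMIs, or 1.86 per 100 kb, against 18.2 per 100 kb over all spans. Of these 43, 5 were called in all 12 libraries and 9 in 1 library. The run held 18 to 26 NMIs in each brain, muscle and PBMC library, 18 to 26 in each sperm and day 1 library, and 13 and 14 in the day 2 libraries. The second, on PIZI01000012v1 at 8506046-10170482, held 17 long gaps over 1.66 Mb with 35 merged NMIs. Over the 10 runs with the most long gaps, 80 of 377 merged NMIs (21.2%) were called in all 12 libraries, with 10.5% to 33.3% per run, against 28.7% of all merged NMIs.

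The sequence beside long gaps was also poorer in NMIs. Within 10 kb of the NMI at the edge of a long gap, with other long gaps left out, brain replicate 2 had 9.69 NMIs per 100 kb and day 2 replicate 1 had 5.83, against 17.5 and 11.1 per 100 kb outside long gaps in the same libraries. In the 12 libraries the density at 0 to 10 kb was 0.518 to 0.578 of that outside long gaps. At 90 to 100 kb it was 0.678 to 0.726, still below the level elsewhere in every library. Each library served as its own reference here, so the ratios are scaled by the NMIs it had in total. The 12 ratios share the same gaps and are not independent. The rise with distance was small with other long gaps left in. From 0 to 10 kb to 90 to 100 kb, the density per 100 kb then changed from 7.87 to 8.36 in muscle replicate 1, the largest rise. In sperm replicate 2 it changed from 8.60 to 8.57. The share of sequence outside long gaps was 85.2% at 0 to 10 kb and 67.6% at 90 to 100 kb.

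**Figure D3:**
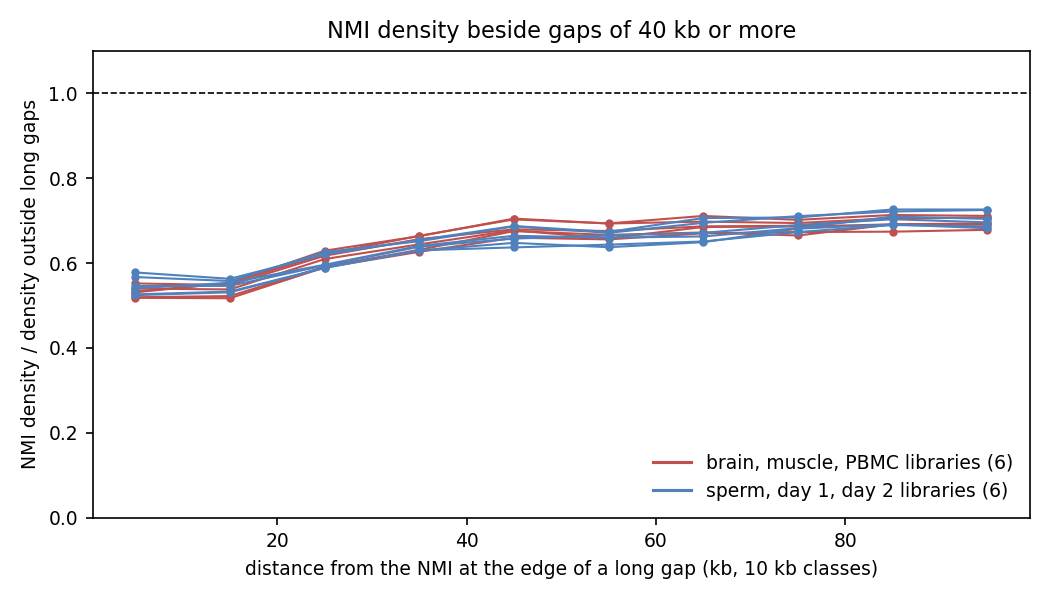
NMI density of each of the 12 libraries in classes of 10 kb from the NMI at the edge of a long gap (x axis, kb), divided by the density outside long gaps in the same library (y axis), with other long gaps left out. All 12 lines start between 0.518 and 0.578 and end between 0.678 and 0.726, below the dashed line at 1.

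The long gaps were bounded by 3956 merged NMIs. Most of these were ordinary short NMIs, with a median width of 481 bp against 561 bp for all merged NMIs. An NMI was called in all 12 libraries at 961 of them (24.3%), against 28.7% of all merged NMIs, and in 1 library alone at 12.7%, against 11.2%. Those of 2 kb or more made up 3.82% of the NMIs at the edges, against 5.28% of all. NMIs called only in brain, muscle or PBMC libraries were as frequent at the edges as elsewhere, at 25.8% against 25.7%. NMIs called only in sperm, day 1 or day 2 libraries made up 16.5% of the edges, against 12% of all merged NMIs. Both classes include NMIs of a single library. NMIs of all 6 brain, muscle and PBMC libraries and no other made up 3.34% of the edges, against 4.73% of all merged NMIs. For all 6 sperm, day 1 and day 2 libraries and no other, the shares were 1.21% and 0.886%.

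By tissue, the share of edge NMIs called in a library was below the share of all merged NMIs called in it for all 12 libraries. The brain replicates had an NMI at 58.9% and 66.0% of the edges, against 66.1% and 74.5% of all merged NMIs. In muscle the shares were 64.2% and 63.9%, against 67.7% and 67.5%, and in PBMCs 47.9% and 48.8%, against 54.9% and 56.8%. In sperm they were 59.3% and 67.9%, against 60.9% and 68.5%. Day 1 replicates had 51.7% and 50.7%, against 55.6% and 54.6%, and day 2 replicates 37.5% and 38.2%, against 41.5% and 41.9%. The share at the edges was thus the lower one in each of the 12 libraries, with the smallest difference in sperm. The difference between edges and all merged NMIs, in percentage points, was -7.90 ± 0.892 in brain, -3.57 ± 0.0840 in muscle, -7.50 ± 0.676 in PBMCs, -1.11 ± 0.680 in sperm, -3.89 ± 0.0696 in day 1 and -3.85 ± 0.232 in day 2 (SD, n = 2 each). The largest deficits were those of brain and PBMCs. The median fold enrichment of edge NMIs was below that of all merged NMIs in every muscle, sperm, day 1 and day 2 library. It was also lower in PBMC replicate 2, and it was higher in both brain libraries and in PBMC replicate 1. The values were 8.10 against 7.88 in brain replicate 1 and 10.2 against 11.8 in sperm replicate 2, for example. The strongest edge NMI was PIZI01000055v1:1690666-1694454, 3789 bp wide, with a fold enrichment of 25.5 to 59.1 in the 12 libraries, beside a gap of 42186 bp. The weakest was PIZI01000003v1:13524584-13525144, called in brain replicate 2 alone with a fold enrichment of 1.78, beside a gap of 64630 bp.

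At 226 places a merged NMI stood alone between 2 long gaps. These isolated NMIs had a median width of 416 bp, against 561 bp for all merged NMIs, and 16.8% of them were called in all 12 libraries, against 28.7%. NMIs of sperm, day 1 or day 2 libraries alone made up 24.3% of them, against 12% of all merged NMIs, whereas NMIs of brain, muscle or PBMC libraries alone made up 24.3%, against 25.7%. The NMI with the longest gaps around it was PIZI01000022v1:13060961-13061311, between gaps of 509521 and 1047235 bp, which was called in both sperm libraries with a fold enrichment of up to 7.31. A 454 bp NMI at PIZI01000066v1:2192579-2193032, between gaps of 525366 and 508102 bp, was called in the 10 libraries other than those of PBMCs, with a fold enrichment of up to 17.6.

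The long gaps are those shared by all libraries. To see what each tissue adds, gaps of 40 kb or more were then taken between the NMIs of single libraries, where NMIs are fewer than over all 12. The brain replicates had 3138 and 2870 such gaps, or 2.49% and 2.1% of all gaps in the library. The muscle replicates had 2939 and 2958 (2.16% each) and the PBMC replicates 3751 and 3700 (3.37% and 3.28%). Sperm replicates had 4113 and 3891 (3.44% and 2.86%), the day 1 replicates 4392 and 4412 (3.81% and 3.91%) and the day 2 replicates 4939 and 4890 (5.72% and 5.67%). Every sperm, day 1 and day 2 library therefore had more gaps than any brain, muscle or PBMC library. Per library they covered 275 ± 15.5 Mb (brain), 267 ± 0.885 Mb (muscle) and 333 ± 3.69 Mb (PBMC), against 339 ± 16.4 Mb (sperm), 379 ± 2.78 Mb (day 1) and 442 ± 2.17 Mb (day 2), with SD and n = 2 each. In length, PBMCs and sperm did not differ beyond the spread of the sperm replicates, which measured 350 and 327 Mb, but in the equally long lists described below they were apart, with 388 ± 1.56 Mb in PBMCs and 418 ± 1.60 Mb in sperm (SD, n = 2 each).

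Over tissues, brain, muscle and PBMCs averaged 3226 ± 433 gaps per library and sperm, day 1 and day 2 averaged 4440 ± 457 (SD, n = 3 tissues each), a difference of -1214. The same tissues had 292 ± 36.0 Mb and 386 ± 52.2 Mb in gaps, a difference of -94.7 Mb, or -92.7 Mb without the gaps of 500 kb or more. A two-sided exact permutation test over the 20 assignments of tissues gave p = 0.1 for both, the smallest p that 3 tissues against 3 can give. For the length, p was 0.2 when sperm replicate 1 was left out (-90.9 Mb), since the PBMC and sperm values then crossed, and the difference was -146 Mb with p = 0.2 in the same exact test after removal of every NMI whose −log10 q was below 10. The sets follow the study's own clustering of these libraries, and the grouping and the test are therefore not independent.

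A list with fewer NMIs leaves more gaps. The day 2 lists were the shortest, with 89979 and 90027 NMIs, and the day 1 lists, with 119911 and 117229, were slightly longer than those of PBMCs, with 115448 and 117044. The embryo libraries also had the smallest shares of uniquely mapped reads, and large shares of duplicates, per the study's sequencing table. The part of depth in these counts was not tested, and the following values concern list length and the libraries used. In equally long lists, cut by −log10 q to the 89979 top NMIs of every library, brain, muscle and PBMCs had 4075 ± 193 gaps and sperm, day 1 and day 2 had 4868 ± 101 (SD, n = 3 tissues each), with p = 0.1 in the same exact test, and the 6 libraries of each set still did not overlap. By tissue, these lists left 4752.5 ± 4.95 gaps per library in sperm, 4937.5 ± 0.707 in day 1 and 4915 ± 33.9 in day 2 (SD, n = 2 each). Day 2 thus no longer had the most gaps. Without the 4 embryo libraries the difference from sperm was -776 gaps, a value with no test. Lists of nearly equal length as deposited also differed. Brain replicate 2 had 2870 gaps with 141921 NMIs and muscle replicate 2 had 2958 with 141334, against 3891 gaps in sperm replicate 2 with 141295 NMIs. These lists were not matched for depth. The study's sequencing table gives fewer read pairs for sperm replicate 2 than for brain replicate 2 and both muscle replicates. It gives more for sperm replicate 2 than for brain replicate 1, with 3138 gaps, and the PBMC replicates, with 3751 and 3700.

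**Figure D4:**
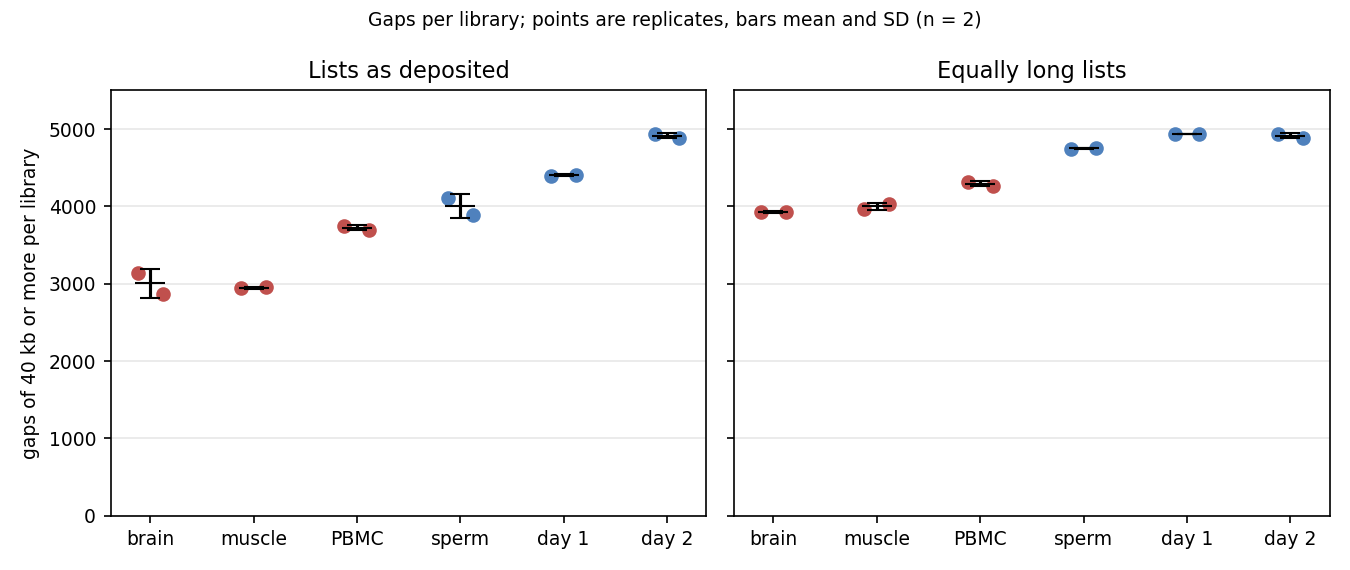
Gaps of 40 kb or more per library (y axis) for brain, muscle and PBMC (red) and sperm, day 1 and day 2 (blue), in the deposited lists (left) and in lists of 89979 NMIs each (right). Points are the 2 replicates, and bars give their mean and SD. All red points lie below all blue points in both panels.

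Many of the long gaps were longer in a single library than over all 12. Of the long gaps with an NMI on both sides in the library, 36.7% to 56.5% were extended by 10 kb or more in the brain, muscle and PBMC libraries and 36.1% to 70.2% in the sperm, day 1 and day 2 libraries. Of all gaps between merged NMIs, 11.9% to 43.1% were extended as much. The highest share was 70.2%, in day 2 replicate 1, against 43.1% of all gaps in that library. The median stretch around a long gap measured 108631 bp there. Sperm replicate 2 and muscle replicate 2 had the lowest shares, 36.1% and 36.7%, with medians of 73331 and 73177 bp. Their shares over all gaps differed, at 22.5% in sperm replicate 2 and 14.1% in muscle replicate 2.

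Further gaps appeared in a tissue where no long gap was present over all 12 libraries. Here the NMIs of both replicates of a tissue were merged first, so that an NMI of either replicate ends a gap. Brain then had 2781 gaps of 40 kb or more, muscle 2824, PBMCs 3595, sperm 3846, day 1 embryos 4128 and day 2 embryos 4696. Of these, 867 in brain (31.2%), 896 in muscle (31.7%), 1799 in PBMCs (50.04%), 1877 in sperm (48.8%), 2226 in day 1 (53.9%) and 2910 in day 2 (62.0%) held none of the 2091 long gaps. These counts depend on list length. In the equally long lists, which have 2837 long gaps, brain added 1164 gaps, muscle 1297 and PBMCs 1677. Sperm then added 2055, day 1 2106 and day 2 2157, so most of the excess of day 2 was gone. Added gaps were of moderate length, with medians from 47785 bp in muscle to 54591 bp in day 2, and summed to 45.5 Mb (brain), 46.6 Mb (muscle), 101 Mb (PBMC), 109 Mb (sperm), 130 Mb (day 1) and 179 Mb (day 2).

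The added gaps of a tissue contained NMIs of the other tissues to different extents. An added gap holds no long gap, so NMIs of other tissues lie in it or reach into it by definition. The share of other stretches of such length that hold an NMI was not computed, so the following shares are a description. Of the 1877 gaps added by sperm, 91.9% held an NMI of both brain replicates, 88.7% of both muscle replicates and 76.0% of both PBMC replicates, against 20.7% for day 1 and 9.43% for day 2. Of the 2226 gaps added by day 1, 85.0% held an NMI of both sperm replicates and 19.9% one of both day 2 replicates. Of the 2910 added by day 2, 96.9% held an NMI of both sperm replicates and 75.2% one of both day 1 replicates. Most gaps added by sperm were therefore also without NMIs shared by the replicates in day 1 and day 2, whereas most gaps added by day 2 were not so in sperm and day 1. Of the 1799 gaps added by PBMCs, 91.9% held an NMI of both brain replicates, 87.2% of both muscle replicates and 83.5% of both sperm replicates. Of the 867 added by brain, 68.1% held an NMI of both sperm replicates, 64.1% of both muscle replicates and 31.5% of both PBMC replicates. Muscle, with 896, had an NMI of both brain replicates in 80.6% and of both sperm replicates in 79.6%. The lists also differed in length, those of day 2 being the shortest, and the part of list length in these shares was not tested.

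The longest gap added by brain was PIZI01000020v1:9321275-9472875 (151601 bp). The muscle replicates had 3 and 2 NMIs in it and the PBMC replicates none, whereas both sperm replicates had 7, both day 1 replicates 6 and both day 2 replicates 5. The longest added by muscle was PIZI01000002v1:13134573-13281590 (147018 bp), with 2 NMIs in each brain replicate, 1 and 2 in PBMCs, 4 in each sperm replicate, 2 in each day 1 replicate and 2 and 1 in day 2. The longest added by PBMCs was PIZI01000004v1:3304101-3476924 (172824 bp), with 11 and 10 NMIs in brain, 9 and 10 in muscle, 7 and 9 in sperm, 4 in each day 1 replicate and 2 in each day 2 replicate.

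Sperm, day 1 and day 2 had their longest added gap at the same place on PIZI01000047v1, with 221024 bp in sperm (3092740-3313763), 221175 bp in day 1 and 221284 bp in day 2. In the 221021 bp without an NMI in any of these 6 libraries (PIZI01000047v1:3092743-3313763), the brain replicates had 29 and 38 NMIs, the muscle replicates 21 and 22 and the PBMC replicates 25 and 31. The groups did not overlap, with 21 to 38 NMIs per library against 0 in each sperm, day 1 and day 2 library. The place was chosen for this pattern, so the values carry no test. The NMIs formed 48 merged NMIs with a median width of 409.5 bp, of which 16 had an NMI in brain, muscle and PBMCs and 12 had one in all 6 of these libraries. Their median fold enrichment was 4.72 to 9.18 per library, the highest single value was 53.0 in PBMC replicate 1, and 18 to 23 NMIs per library had a −log10 q of 10 or more.

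In the 100 kb before this stretch, 8 to 17 NMIs were called in the brain, muscle and PBMC libraries and 3 to 9 in the sperm, day 1 and day 2 libraries. In the 100 kb after it there were 13 to 26 and 12 to 22. The stretch has an NMI of a sperm, day 1 or day 2 library at each end by definition. In all 12 libraries NMIs were called on both sides within 100 kb.

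**Figure D5:**
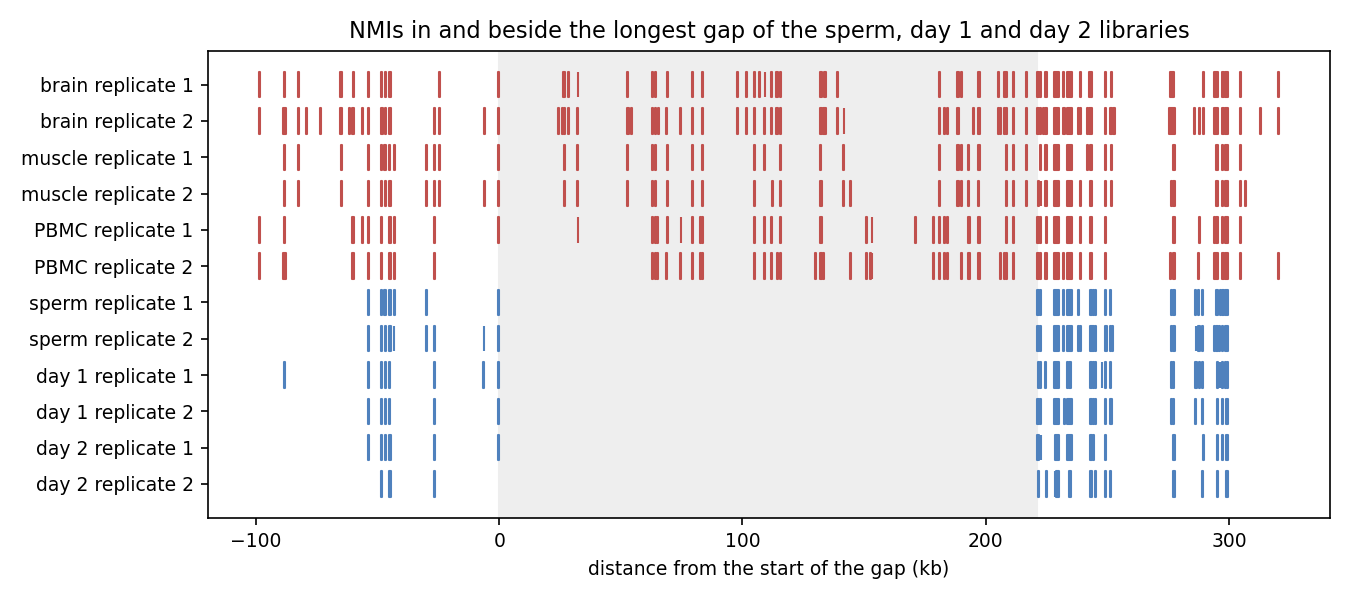
NMIs of each library (marks) by distance in kb from the start of a gap of the sperm, day 1 and day 2 libraries (grey, 221021 bp). This gap was the longest of their shared gaps that held no long gap. The brain, muscle and PBMC libraries (red, top) have 21 to 38 NMIs in it, the sperm, day 1 and day 2 libraries (blue, bottom) have 0, and all have NMIs on either side. Marks are drawn at least 400 bp wide.

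This place was the longest of many such stretches. When the 6 libraries of each set were merged, which was chosen after the values of single tissues had been seen, brain, muscle and PBMCs had 2352 gaps of 40 kb or more and sperm, day 1 and day 2 had 3632. Of these, 359 of the brain, muscle and PBMC gaps (18.3 Mb) and 1633 of the sperm, day 1 and day 2 gaps (93.5 Mb) held no long gap. Such gaps have NMIs of the other set in them or reaching into them by definition. No share over other stretches of such length was computed, so the following counts are a description. NMIs of all 6 libraries of the other set were called in 65 of the 359 (18.1%) and in 1137 of the 1633 (69.6%). The 18.1% required NMIs in the day 2 lists, which were the shortest. At least 3 NMIs in every library of the other set were found in 4 of the 359 and in 497 of the 1633. In equally long lists NMIs of all 6 libraries of the other set were called in 161 of 472 (34.1%) and in 1021 of 1565 (65.2%), and at least 3 in every library in 10 and in 374. Without the 4 embryo libraries, where only the 2 sperm libraries had to hold NMIs, at least 3 were found in 43 of the 301 gaps of brain, muscle and PBMCs, and in 596 of the 1822 gaps of sperm. After PIZI01000047v1, the longest of the 1633 sperm, day 1 and day 2 gaps that held no long gap were on PIZI01000009v1 and PIZI01000039v1. PIZI01000009v1:12180057-12360518 (180462 bp) had 6 to 12 NMIs per brain, muscle and PBMC library, and PIZI01000039v1:7571812-7715282 (143471 bp) had 5 to 10.

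The reverse pattern had fewer cases in each of these settings, and its longest stretch was shorter. The longest gap added by brain, muscle and PBMCs together, PIZI01000116v1:655032-760625 (105594 bp), held 2 and 3 NMIs in sperm, 3 in each day 1 replicate, and 0 and 2 in day 2. The 4 gaps with at least 3 NMIs in every sperm, day 1 and day 2 library were PIZI01000269v1:38484-130396 (91913 bp), PIZI01000037v1:10883834-10942027 (58194 bp), PIZI01000094v1:447497-498424 (50928 bp) and PIZI01000484v1:3204-44157 (40954 bp). The one on PIZI01000037v1 stood out in number, with 13 and 14 NMIs in the sperm replicates, 7 and 10 at day 1, and 5 and 7 at day 2, against 0 in each brain, muscle and PBMC library. The other 3 held 3 to 5 NMIs per sperm, day 1 and day 2 library. These places were picked by their counts, so they are given as a description. Whether any of them lies in DNA lost from somatic cells was not tested.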

How the data were processed

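Genomic DNA of 12 BioCAP libraries was sequenced. Per the labels, samples had 34 M to 307 M read pairs, a range that does not set input samples apart. Per the labels and the study's methods, the authors used Trimmomatic for trimming, Bowtie2 for alignment to petMar3, Picard for removing duplicates and MACS2 for a peak list per library. The MACS2 options were not stated there. Each line of the deposited lists holds the fold enrichment of a peak over local background (a ratio), its −log10 p-value and −log10 q-value, and a score. The largest q-value in the deposited lists was 0.0500. Fold and −log10 q were used within a library only, and the −log10 p and score were not used. The lists hold no reads, so the depth behind a gap is unknown and no counting interval is given.

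Peaks were merged and gaps, runs (at most 100 kb apart), edge NMIs and densities were computed in Python 3.11.15 with NumPy 2.4.6 and pandas 2.3.3, with positions counted from 1. The functions were tested on simulated lists with planted gaps. The members and the named regions were chosen with earlier results of these data known. Named regions are the 10 longest gaps (4 with full values), the longest gap each tissue adds, the run with the most gaps, the gaps nearest to the limit, the gaps of PIZI01000001v1 and PIZI01000031v1, and the strongest and weakest edge NMI. Other named places were chosen after their values were seen. An exact permutation test over tissue means compared the tissue sets. Alternatives were minimum lengths of 30, 50 and 60 kb, a −log10 q of at least 5 or 10, lists of 89979 NMIs, each library left out, and others given below. Leaving out the embryo libraries or the gaps of 500 kb or more, and leaving other long gaps in the density, were chosen after seeing the data. The 5 input samples, of brain, muscle, sperm, day 1 and day 2, were not used here. No input of PBMCs is listed, and its part in the PBMC values was not tested. Sequence, gene annotation and N content of the gaps were not analysed, as no petMar3 genome was used here.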

Additional observations from a re-analysis of the deposited data

How the results depend on the processing

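Neither set difference, in number or in length, changed direction in its 22 alternatives. The other results have no direction to change. Of 370 alternative values of all results, 331 stayed near the main value. Near meant counts within 1.5 times, shares within their 95% interval, densities within 1 SD over libraries and set differences of the same sign. Many of the 370 values leave out 1 library only. The design cannot give an exact p below 0.1, so p says nothing about stability. For the length in gaps it was 0.2 at 50 kb (-83.3 Mb), at 60 kb, at a −log10 q of 10 or more (-146 Mb) and without sperm replicate 1 (-90.9 Mb). The set differences were -721 gaps and -70.3 Mb at 60 kb and -793.7 gaps and -65.2 Mb in equally long lists. Deviations of same-numbered replicates had correlations over 1 Mb bins of -0.110 to 0.219 in 15 pairs of tissues, 2 above 0.1. The highest was that of brain and sperm. These correlations cannot show whether samples of the same replicate number were paired, and the main test used no pairing. A replicate block leaves the differences at -1213.5 gaps and -94.7 Mb by construction, as every tissue has 1 library of each replicate number.

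The other values follow the minimum length by construction. At 30 kb there were 3725 gaps, a following-gap share of 13.96%, and 1348 gaps added by brain, 1372 by muscle and 542 by the brain/muscle/PBMC set. At 50 kb there were 1345 gaps and a share of 8.84%. At 60 kb there were 969 gaps, shares of 8.16% followed and 22.9% of edge NMIs in all libraries, a density ratio of 0.563, and 435 gaps added by brain, 413 by muscle, 909 by PBMCs, 891 by sperm, 1178 by day 1, 1626 by day 2, 175 by the brain/muscle/PBMC set and 767 by the sperm/day 1/day 2 set. The following-gap share was 12.8% at a −log10 q of 10 or more, 15.5% in equally long lists and 12.9% when only NMIs of 2 or more libraries ended a gap. Edge NMIs in all libraries made up 21.9% at a −log10 q of 5, 17.3% at 10, 27.2% in equally long lists and 24.3% to 25.7% with a library left out. The density ratio (median of libraries 0.536) was 0.557 in equally long lists. With other long gaps left in it was 0.568, but its reference was then the density over all spans. That value therefore cannot be set against 0.536. Brain added 1405 gaps when only bases common to both replicates ended a gap. The causes were not tested. Leaving out a library moved the number of long gaps to between 2090 and 2155. The planned reading of gap sequence was not run.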
